A study of Mus musculus with 6 samples.

Results

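Transcript levels of 42 autophagy and lysosome genes were compared between livers of FGF19-treated and vehicle-treated mice. The genes were taken by symbol from a list that covers the initiation, nucleation and conjugation steps of autophagy, its cargo receptors, the transcription factors TFEB and TFE3, and lysosomal membrane proteins and proteases. All 42 had a row among the 23284 genes of the deposited count files, and all 42 passed the filter on low counts. C57BL/6 mice, 8 weeks old and male by the study's methods, were fasted overnight and then received either vehicle (the Vehicle group, 3 mice) or FGF19 at 1 mg/kg (the FGF19 group, 3 mice). Fasting went on in both groups until the livers were taken 6 h later, so neither group was refed. FGF19 is the human form of a hormone that the ileum releases after a meal, and FGF15 is its mouse counterpart. The study sequenced these livers to look at how the hormone acts on lipogenic genes, and the autophagy and lysosome genes are read here from the same libraries.

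Autophagy is the process by which a cell encloses part of its contents in a membrane, the autophagosome, and delivers them to the lysosome for breakdown. In liver it is induced by fasting, when it supplies amino acids, lipids and glucose, and it declines after feeding. The ULK kinase complex starts the process, a class III PI3-kinase complex marks the growing membrane with the lipid PI3P, 2 ubiquitin-like conjugation systems attach ATG8 proteins to that membrane, and cargo receptors tie the material to be degraded to the ATG8 proteins. Much of it is controlled through the proteins themselves, by phosphorylation and lipidation, which transcript levels do not show.

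The libraries held between 18994654 and 22920056 counts, and the 3 counts that an observed 0 could hide are worth 0.136 to 0.159 CPM, the unit of counts scaled to library size with edgeR's TMM factors. All of the 42 genes lay far above this limit, with the lowest mean at 4.04 CPM for Atg10. Over all genes, FGF19 replicate 3 differed more from the other FGF19 libraries (chi-square per degree of freedom of their counts 29.7 and 39.5) than these did from each other (8.25), while Vehicle libraries differed by 15.7 to 28.1 and libraries of different groups by 68.1 to 99.6. Counts of called members are given with and without it. The tissue label was checked with Alb, the albumin gene of hepatocytes, which was at 63530 to 70450 CPM. In such bulk tissue, fewer cells of a type and less RNA per cell cannot be told apart. Of 8 hepatocyte markers, Fgb, a fibrinogen gene that is also an acute phase gene, was called higher in the FGF19 group (log2 fold change 1.35) and the other 7 were not called. Of 8 Kupffer cell markers, Marco (2.29) and Cd68 (0.66) were called higher, Vsig4 was lower at p under 0.01 only (-0.54, edgeR adjusted p = 0.0755), and the summed level of the 8 was 189 to 236 CPM with vehicle and 196 to 230 CPM with FGF19. Of 6 monocyte markers, 5 of them tested, Itgam (2.85) and Cd14 (1.41) were called higher, with a summed level of 35.6 to 41.97 CPM against 40.7 to 49.1 CPM, and of 7 neutrophil markers, of which 3 had enough counts to be tested, S100a9 (2.16), with a summed level of 2.43 to 3.77 CPM against 6.25 to 9.37 CPM. Ccr2 of the monocyte list (1.03) and Csf3r of the neutrophil list (0.82) were higher at p under 0.01 only. None of the tested markers of lymphocytes (5 of 7 tested), sinusoidal endothelial cells, stellate cells or cholangiocytes was called at the adjusted threshold, and Clec4g of the endothelial list was lower at p under 0.01 (-0.38, edgeR adjusted p = 0.0736). Of 5 red blood cell markers, 4 globin genes were listed at 0 in all libraries and Alas2 was lower at p under 0.01 (-0.51, edgeR adjusted p = 0.0645). The part of the markers called here in the results on the 42 genes was not tested.

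Of the 42 genes, 3 fell and 1 rose in the FGF19 group. Bnip3, a mitophagy receptor, fell by 0.78 on the log2 scale, and Gabarapl1 and Map1lc3a, which encode ATG8 proteins, fell by 0.48 and 0.42. Atg13, a subunit of the ULK complex, rose by 0.52. The other 38 genes were not called at an edgeR adjusted p under 0.05, which here means the quasi-likelihood test of edgeR and the Benjamini-Hochberg method applied to all 12559 genes that were tested. The 3 genes that fell are 7.14% of the members, where 2.84% of all genes tested were called lower, and the 1 that rose is 2.38%, where 4.56% were called higher. At p under 0.01, the threshold in the study's methods, Atg3 and Atg7 joined the lower genes, which made 5 lower (11.9%, against 4.98% of all genes tested) and 1 higher (2.38%, against 6.20%). In 12 members every FGF19 library lay below every Vehicle library (28.6%, against 13.8% of all genes tested), and in 4 every FGF19 library lay above (9.52%, against 14.5%). The groups overlapped in the other 26.

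Most of the 42 log2 fold changes were small. Their median was -0.04, beside -0.0008 over all genes tested, with 25 below 0 and 17 above. In 35 of the 42 the log2 fold change was under 0.3 in size, and over all genes tested this held for 70.8%. The 12 genes with non-overlapping lower groups were Atg14, Atg2b, Atg3, Atg7, Atg16l1, Map1lc3a, Gabarapl1, Gabarapl2, Bnip3, Lamp1, Lamp2 and Ctsd, and the 4 with non-overlapping higher groups were Atg13, Wipi2, Atg12 and Tfe3. With 3 libraries against 3, the smallest two-sided p of an exact permutation test is 0.1, so calls rest on the fit across all genes, which shares its estimate of the spread between genes. Which calls were made also depended on single libraries. Without FGF19 replicate 3, 7 members were called lower at an edgeR adjusted p under 0.05, and without FGF19 replicate 1 there were 3. Without FGF19 replicate 2 or any 1 Vehicle library there was only 1, Bnip3. The share of all genes called in these fits was not computed, so these counts are not set against all genes.

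**Figure D1:**
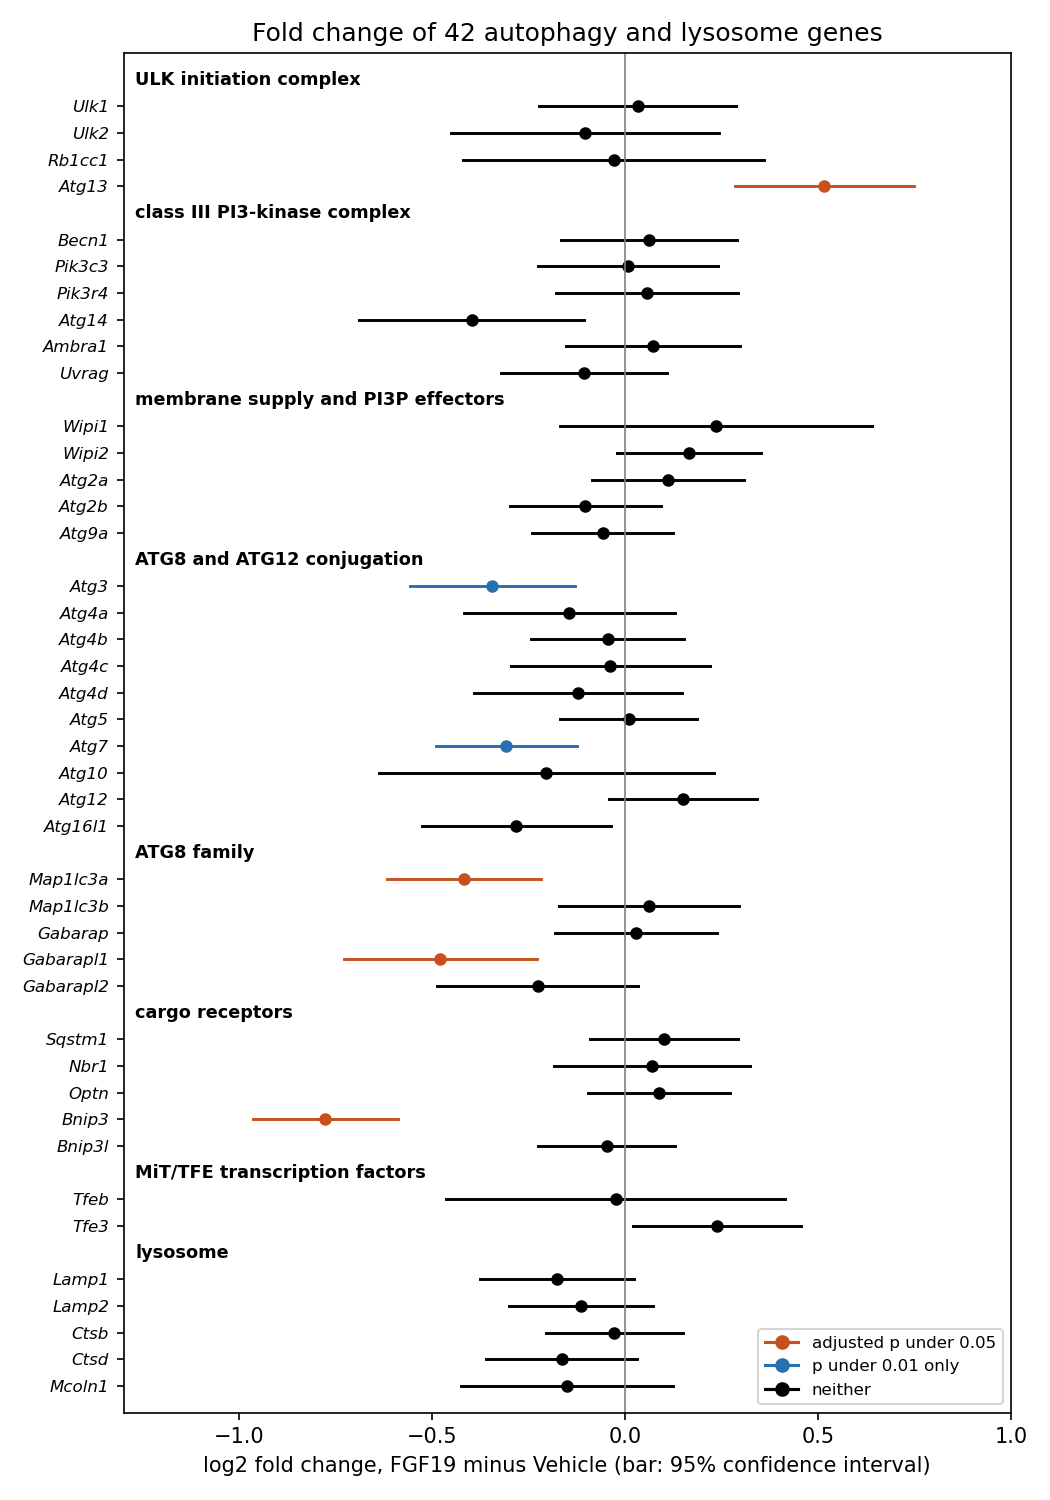
Log2 fold change (FGF19 minus Vehicle, horizontal axis) of each of the 42 genes, grouped by role, with its 95% confidence interval as a bar. Bnip3 stands lowest at -0.78 and Atg13 highest at 0.52, and most of the other intervals include 0.

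The sequences before the start sites of the genes that passed either threshold are shown to give the letters around their annotated starts. They are RefSeq promoter windows (table of build GRCm38.p6) of 300 bases, from 250 before to 50 after the annotated start. Each was searched in mm9, the build of the count files, on its own chromosome and strand only. It matched there at exactly 1 place, which is the position given. Such a window was found by symbol for 34 of the 42 genes. It was not found for Bnip3l, Atg16l1, Map1lc3a, Pik3c3, Rb1cc1, Becn1, Ctsb and Atg12. Capitals mark CACGTG, the core of the E-box, letters that TFEB and TFE3 among many other factors can bind.
Bnip3, chr7:146101140-146101439, minus strand: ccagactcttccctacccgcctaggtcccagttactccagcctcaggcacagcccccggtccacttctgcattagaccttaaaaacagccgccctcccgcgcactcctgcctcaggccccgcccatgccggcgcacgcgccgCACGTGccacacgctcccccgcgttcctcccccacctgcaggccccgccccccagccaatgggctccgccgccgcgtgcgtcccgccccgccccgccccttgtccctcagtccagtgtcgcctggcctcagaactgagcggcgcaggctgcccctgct
Gabarapl1, chr6:129482960-129483259, plus strand: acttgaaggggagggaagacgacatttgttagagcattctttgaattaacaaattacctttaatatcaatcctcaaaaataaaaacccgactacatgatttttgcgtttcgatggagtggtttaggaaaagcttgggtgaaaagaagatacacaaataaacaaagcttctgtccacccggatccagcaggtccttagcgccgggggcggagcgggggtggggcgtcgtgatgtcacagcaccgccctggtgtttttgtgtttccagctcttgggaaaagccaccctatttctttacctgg
Atg13, chr2:91550700-91550999, minus strand: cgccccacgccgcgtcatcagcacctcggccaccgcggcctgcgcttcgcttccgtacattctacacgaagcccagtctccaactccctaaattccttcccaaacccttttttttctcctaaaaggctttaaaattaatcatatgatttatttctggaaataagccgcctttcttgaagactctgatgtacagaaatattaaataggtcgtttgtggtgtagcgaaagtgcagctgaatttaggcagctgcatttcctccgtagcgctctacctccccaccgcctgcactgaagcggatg
Atg3, chr16:45158692-45158991, plus strand: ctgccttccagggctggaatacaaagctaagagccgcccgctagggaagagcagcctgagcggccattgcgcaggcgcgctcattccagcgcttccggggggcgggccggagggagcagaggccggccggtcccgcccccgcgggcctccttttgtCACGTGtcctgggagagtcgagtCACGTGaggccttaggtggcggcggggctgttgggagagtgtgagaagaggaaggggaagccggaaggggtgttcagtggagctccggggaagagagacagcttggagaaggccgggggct
Atg7, chr6:114620868-114621167, plus strand: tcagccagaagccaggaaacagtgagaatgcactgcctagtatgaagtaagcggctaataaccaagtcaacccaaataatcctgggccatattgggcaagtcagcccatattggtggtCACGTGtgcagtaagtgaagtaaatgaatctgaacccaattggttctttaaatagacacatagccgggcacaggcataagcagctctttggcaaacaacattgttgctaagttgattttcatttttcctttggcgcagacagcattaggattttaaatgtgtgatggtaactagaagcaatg

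Bnip3 held CACGTG at 108 bases before the start, Atg7 at 132 bases before it, and Atg3 at 94 and 71 bases before it. The windows of Gabarapl1 and Atg13 did not hold these letters. The Atg7 window lies inside the gene model that was counted, which begins upstream at chr6:114593119. On either strand, CACGTG was in the windows of 8 of the 34 genes (23.5%): Atg14, Atg3, Atg5, Atg7, Bnip3, Ctsd, Lamp1 and Mcoln1. Over all 27025 genes with a window it was in 8.09%. The longer TCACGTGA, which contains CACGTG and is the inner part of the CLEAR motif known from lysosomal genes, was in 3 (8.82%), Atg3, Ctsd and Mcoln1, against 1.12% of all genes with a window. TGACGTCA, the cAMP response element, was in the window of Atg5 only (2.94%, against 2.03%), and GTAAACA, an element that FOXO factors can bind, was in none of the 34 (4.05% of all). The 4 motifs were chosen after the windows had been seen. The 27025 genes were not limited to genes with counts in these livers, while the 34 all had them. These shares are therefore not a test of enrichment. A match describes letters and is not a measured binding site.

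The ULK initiation complex receives signals from nutrient-sensing kinases and starts the autophagosome. Of its 4 genes, Atg13 rose and the other 3 were not called. Atg13, the subunit that links the kinase to its scaffold (chr2:91514769-91550749, minus strand), was at 49.3, 56.5 and 47.3 CPM in the Vehicle libraries and at 78.8, 74.1 and 66.0 CPM in the FGF19 libraries. Every FGF19 library lay above every Vehicle library. Its log2 fold change was 0.52 (standard error 0.104, 95% confidence interval 0.28 to 0.75, edgeR adjusted p = 0.0174), which is 1.43-fold. The rise passed the threshold in all 7 alternatives that kept all 6 libraries (adjusted p between 0.00096 and 0.038) and kept its direction without any 1 library. It lost its call without Vehicle replicate 1 (0.0693), Vehicle replicate 3 (0.0953), FGF19 replicate 1 (0.0787) or FGF19 replicate 2 (0.0638).

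Ulk1, the kinase, had about the same mean level per exon length over all 6 libraries as Atg13 (17.41 and 17.35 RPKM), with Ulk1 the higher of the pair in 3 of 3 Vehicle libraries and Atg13 in 3 of 3 FGF19 libraries. Ulk1 was at 16.6, 18.0 and 17.1 RPKM (CPM per kilobase of exon) in the Vehicle libraries and at 19.7, 18.4 and 14.7 RPKM in the FGF19 libraries. The groups overlapped, and its log2 fold change was 0.03 (95% confidence interval -0.22 to 0.29, edgeR adjusted p = 0.9). Ulk2, its paralog, had a log2 fold change of -0.10 and Rb1cc1, which encodes the scaffold FIP200, of -0.03. FGF19 replicate 3 was the lowest of all 6 libraries for Ulk1, Ulk2 and Rb1cc1. Rb1cc1 was at 45.5 and 44.9 CPM in FGF19 replicates 1 and 2 and at 27.7 CPM in replicate 3, and its fold change was 0.17 without that library (edgeR adjusted p = 0.224).

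The class III PI3-kinase complex makes the lipid PI3P on the growing membrane. None of its 6 genes was called in either direction at an edgeR adjusted p under 0.05 or at p under 0.01. Becn1, the subunit Beclin 1 and the most abundant of them per exon length, was at 22.9, 19.1 and 19.4 RPKM in the Vehicle libraries and at 19.8, 21.7 and 22.6 RPKM in the FGF19 libraries. These ranges overlapped, with a log2 fold change of 0.06 (95% confidence interval -0.17 to 0.29), and 21.4% of the exon bases of Becn1 are shared with Cntd1, so reads there were not counted for either gene. Atg14, the subunit that directs the complex to autophagy, was at 15.7, 17.8 and 14.7 CPM in the Vehicle libraries and at 10.6, 13.4 and 12.6 CPM in the FGF19 libraries. All FGF19 libraries were below all Vehicle libraries, and the log2 fold change was -0.40 (standard error 0.13, 95% confidence interval -0.69 to -0.11), with an edgeR adjusted p of 0.103. The catalytic subunit Pik3c3, its regulatory subunit Pik3r4, Ambra1 and Uvrag had log2 fold changes between -0.11 and 0.07.

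Of the 5 genes that supply membrane or bind PI3P, none was called. Wipi2, a PI3P-binding protein that recruits the conjugation machinery, was at 83.6, 81.9 and 75.7 CPM in the Vehicle libraries and at 92.8, 85.9 and 91.8 CPM in the FGF19 libraries. The groups did not overlap, and the log2 fold change was 0.17 (95% confidence interval -0.02 to 0.35, edgeR adjusted p = 0.278). Wipi1, its relative, had the largest fold change of the 5, 0.23 on the log2 scale (standard error 0.18), and the widest spread in the Vehicle group, with 19.4, 31.2 and 20.6 CPM, against 28.5, 24.0 and 31.1 CPM in the FGF19 group. Vehicle replicate 2 lay above all FGF19 libraries for Wipi1, and without it the log2 fold change was 0.48 (edgeR adjusted p = 0.0894). The lipid transfer proteins Atg2a and Atg2b had log2 fold changes of 0.11 and -0.10, and the scramblase Atg9a one of -0.06.

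The conjugation genes encode the enzymes that attach ATG12 to ATG5 and ATG8 proteins to lipid. Among these 10 genes Atg3 and Atg7 were lower at p under 0.01, none passed an edgeR adjusted p under 0.05, and 8 of the 10 fold changes were below 0. Atg7, the E1-like enzyme that activates both ATG8 and ATG12 (chr6:114593119-114810632, plus strand), was at 58.9, 58.3 and 57.7 CPM in the Vehicle libraries and at 49.5, 46.9 and 44.8 CPM in the FGF19 libraries. The Vehicle libraries had a coefficient of variation of 1.04%, and all FGF19 libraries lay below them. The log2 fold change was -0.31 (standard error 0.0814, 95% confidence interval -0.49 to -0.13, edgeR adjusted p = 0.0519).

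Atg3, the E2-like enzyme that passes ATG8 to lipid (chr16:45158942-45188651, plus strand), was the most abundant conjugation gene per exon length, with 55.7, 46.9 and 46.8 RPKM in the Vehicle libraries and 37.9, 39.1 and 40.8 RPKM in the FGF19 libraries. Vehicle replicate 1 stood above the other two, and the groups did not overlap. The log2 fold change of Atg3 was -0.34 (standard error 0.095, 95% confidence interval -0.56 to -0.13, edgeR adjusted p = 0.0611). Both genes stood close to the adjusted threshold. Atg3 passed it with DESeq2 (adjusted p = 0.0344), with edgeR's likelihood ratio test (0.0385) and in the quasi-likelihood fit without FGF19 replicate 3 (0.0363), and Atg7 did with DESeq2 (0.0486), the likelihood ratio test (0.0412), a filter of at least 1 CPM on the mean (just under 0.05) and without FGF19 replicate 3 (0.0384). They did not pass in the other fits, where the edgeR adjusted p went up to 0.163 for each on all 6 libraries, and with 1 library left out up to 0.209 for Atg3 and 0.18 for Atg7.

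The E2-like Atg10, which conjugates ATG12, had a log2 fold change of -0.20, and ATG12's own gene Atg12 one of 0.15, with non-overlapping higher groups. Atg5, the acceptor of ATG12, was at 61.1, 61.0 and 57.5 CPM against 60.0, 59.0 and 61.7 CPM, and its log2 fold change of 0.01 had a 95% confidence interval of -0.17 to 0.19. Atg16l1, which brings the ATG12-ATG5 conjugate to the membrane, had non-overlapping lower groups and a log2 fold change of -0.28 (95% confidence interval -0.53 to -0.04, edgeR adjusted p = 0.159). The ATG4 proteases, which cut ATG8 proteins before conjugation and off the membrane afterwards, had log2 fold changes of -0.14 for Atg4a, -0.04 for Atg4b, -0.04 for Atg4c and -0.12 for Atg4d. All 4 of these ranges overlapped, and 31.2% of the exon bases of Atg4d are shared with Kri1.

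**Figure D2:**
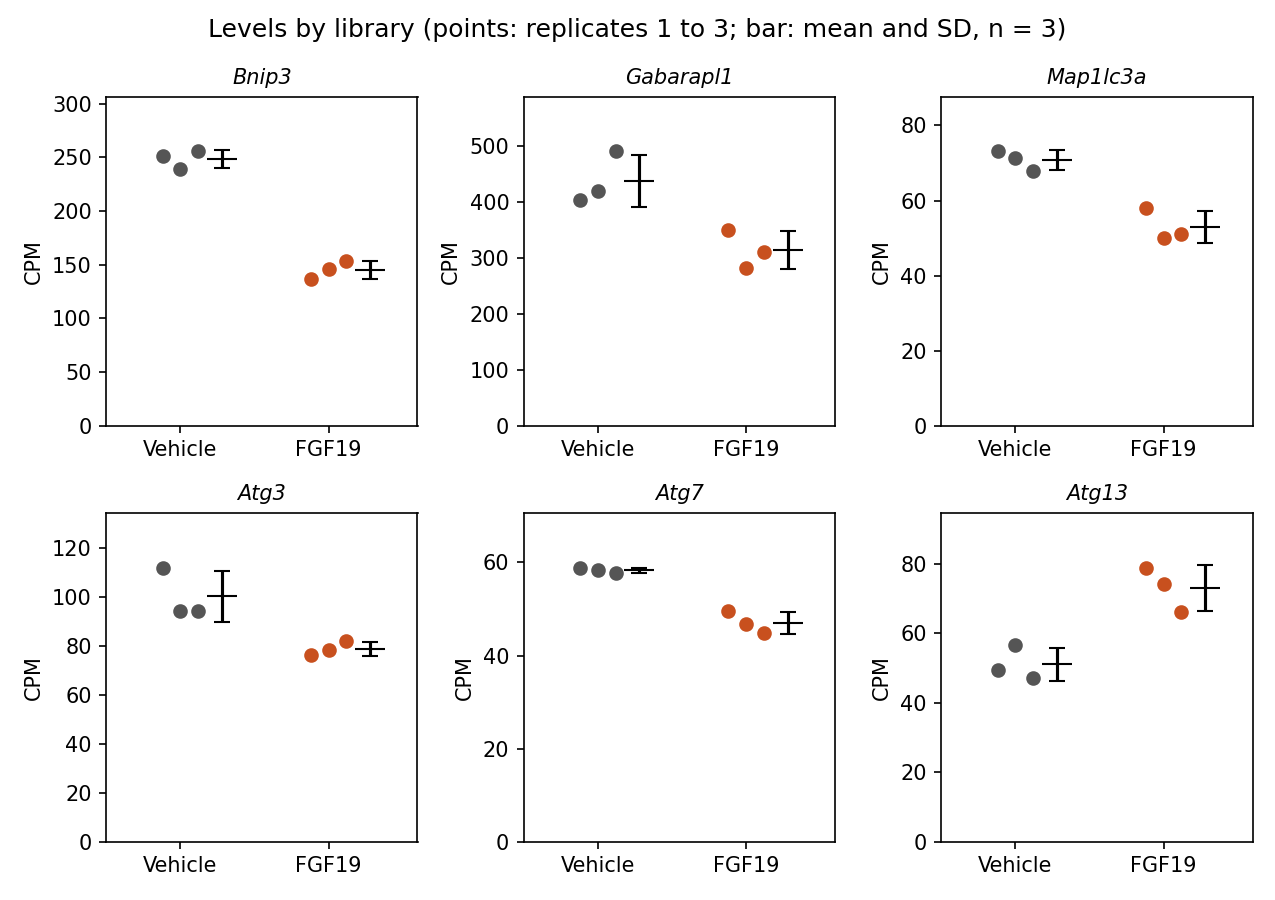
CPM (vertical axis, from 0) in each of the 3 Vehicle and 3 FGF19 libraries for the 6 genes past either threshold, with the mean and SD beside them. In Bnip3, Gabarapl1, Map1lc3a, Atg3 and Atg7 all FGF19 points lie below all Vehicle points, and in Atg13 they lie above.

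The ATG8 proteins coat the autophagosome membrane and are the docking sites for cargo receptors. Of the 5 genes, Gabarapl1 and Map1lc3a fell and Map1lc3b, Gabarap and Gabarapl2 were not called. Gabarapl1 (chr6:129483210-129492349, plus strand) was at 404, 420 and 490 CPM in the Vehicle libraries and at 349, 282 and 311 CPM in the FGF19 libraries. All FGF19 libraries lay below all Vehicle libraries, with Vehicle replicate 3 highest. The log2 fold change of Gabarapl1 was -0.48 (standard error 0.111, 95% confidence interval -0.73 to -0.23, edgeR adjusted p = 0.0323), a fall by 28.3%. The fall lost its call without Vehicle replicate 1 (adjusted p = 0.0506), Vehicle replicate 2 (0.0604), Vehicle replicate 3 (0.142) or FGF19 replicate 2 (0.138). Over all 6 fits that left out a library, the log2 fold change was between -0.56 and -0.39. With all 6 libraries it passed in 6 of 7 alternatives, and the highest adjusted p was 0.0706. Of its exon bases 2.65% are shared with 1700101I11Rik.

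Map1lc3a, which encodes LC3A (chr2:155102100-155103809, plus strand), was at 73.1, 71.4 and 68.0 CPM in the Vehicle libraries and at 57.9, 50.1 and 51.0 CPM in the FGF19 libraries. The groups were separate. Its log2 fold change was -0.42 (standard error 0.0893, 95% confidence interval -0.62 to -0.22, edgeR adjusted p = 0.0233), a fall by 25.1%. It lost its call without Vehicle replicate 1 (adjusted p = 0.0821), Vehicle replicate 2 (0.0706), Vehicle replicate 3 (0.0748) or FGF19 replicate 2 (0.111). Over all 6 fits that left out a library, its log2 fold change was between -0.49 and -0.37. With all 6 libraries it passed in 6 of 7 alternatives, and the highest adjusted p was 0.0674. Map1lc3b, which encodes LC3B, the form most often used to follow autophagosomes, was at 118, 141 and 117 CPM against 126, 124 and 142 CPM, with a log2 fold change of 0.06 (95% confidence interval -0.17 to 0.30). Gabarap, the most abundant of the 5 per exon length over all libraries, was at 212, 214 and 211 RPKM in the Vehicle libraries and at 206, 201 and 242 RPKM in the FGF19 libraries. FGF19 replicate 3 was the highest and the other 2 FGF19 libraries were the lowest of the 6, and the log2 fold change was 0.03 (95% confidence interval -0.18 to 0.24). Gabarapl2 was at 17.44, 17.81 and 18.02 CPM against 13.96, 14.15 and 17.38 CPM, with a log2 fold change of -0.23 (edgeR adjusted p = 0.285), and it was called lower only without FGF19 replicate 3 (adjusted p = 0.0489).

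The make-up of the ATG8 family transcripts shifted with these values. Gabarapl1 held 39.9% ± 2.93 (SD, n = 3) of the summed RPKM of the 5 genes with vehicle and 33.1% ± 2.69 (SD, n = 3) with FGF19, while Gabarap held 34.3% ± 1.28 and 40.3% ± 2.49. Gabarapl1 had the larger share in 3 of 3 Vehicle libraries and Gabarap in 3 of 3 FGF19 libraries. The share of Map1lc3a was 11.0% ± 0.784 and 9.49% ± 0.792, that of Map1lc3b 11.8% ± 1.35 and 14.3% ± 0.7, and that of Gabarapl2 2.93% ± 0.0551 and 2.89% ± 0.261. The summed RPKM was 596, 619 and 639 in the Vehicle libraries and 546, 495 and 567 in the FGF19 libraries, all below the Vehicle libraries.

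**Figure D3:**
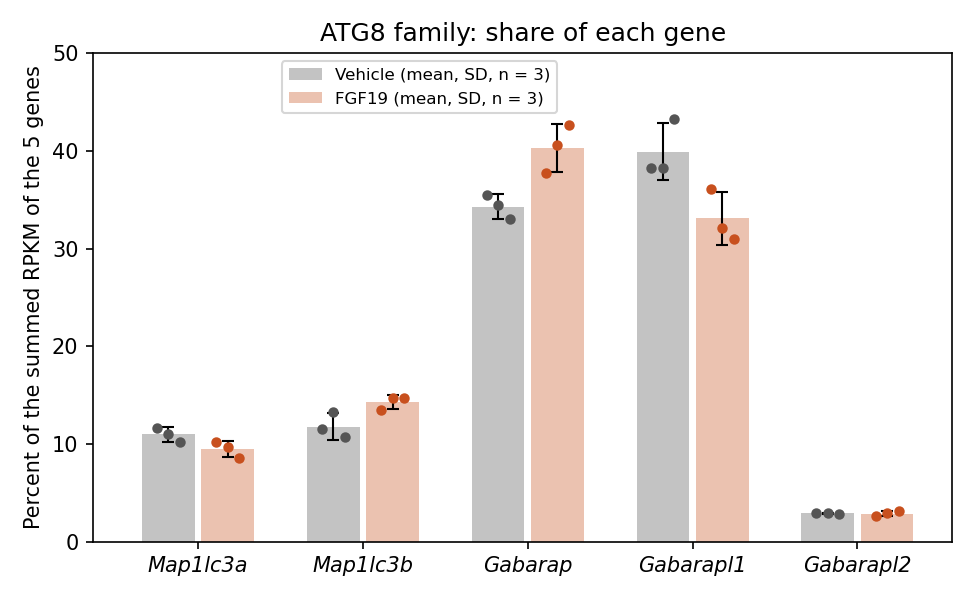
Share of each ATG8 family gene in the summed RPKM of the 5 genes (vertical axis, percent), with bars for the mean of 3 libraries, error bars for the SD and a point for each library. Gabarapl1 holds 39.9% with vehicle and 33.1% with FGF19, and Gabarap 34.3% and 40.3%.

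Cargo receptors bind both the cargo and the ATG8 proteins. Bnip3 fell and the other 4 genes were not called. Bnip3, which marks mitochondria for mitophagy and is a known target of the hypoxia-inducible factors and of FOXO3 (chr7:146082519-146101189, minus strand), was at 251, 239 and 256 CPM in the Vehicle libraries and at 136, 146 and 153 CPM in the FGF19 libraries. The highest FGF19 library was far below the lowest Vehicle library. Its log2 fold change was -0.78 (standard error 0.0838, 95% confidence interval -0.97 to -0.59, edgeR adjusted p = 0.000861), a fall by 41.7%. Bnip3 was the only member called lower in all 6 fits that left out a library, with log2 fold changes between -0.81 and -0.74 and adjusted p between 0.000528 and 0.00822.

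Bnip3l, also called Nix, the paralog that acts in the same process, was at 69.2, 72.1 and 71.1 CPM in the Vehicle libraries and at 69.3, 70.8 and 65.4 CPM in the FGF19 libraries. These ranges overlapped, with a log2 fold change of -0.05 (95% confidence interval -0.23 to 0.13). Sqstm1, which encodes the ubiquitin-binding receptor p62 and was the most abundant of the 5 per exon length, was at 260, 243 and 266 RPKM in the Vehicle libraries and at 282, 282 and 260 RPKM in the FGF19 libraries. Its log2 fold change was 0.10 (95% confidence interval -0.09 to 0.29, edgeR adjusted p = 0.544). Nbr1, a receptor that works with p62, and Optn, a receptor for ubiquitin-marked mitochondria and bacteria, had log2 fold changes of 0.07 and 0.09, and FGF19 replicate 3 was the lowest of all 6 libraries for Nbr1.

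Within each library, 3 pairs of paralogs were set against each other, which removes the scaling of the library. The RPKM ratio of Bnip3 to Bnip3l was 6.68, 6.12 and 6.63 in the Vehicle libraries and 3.63, 3.79 and 4.31 in the FGF19 libraries. That of Gabarapl1 to Gabarap was 1.08, 1.11 and 1.31 against 0.958, 0.792 and 0.726, and that of Map1lc3a to Map1lc3b was 1.02, 0.828 and 0.952 against 0.755, 0.661 and 0.587. In all 3 pairs the groups were separate. The differences in the mean log2 ratio were -0.73, -0.50 and -0.48, each with an exact two-sided permutation p of 0.1, the smallest that 20 regroupings allow, and 0.1 after Benjamini-Hochberg adjustment over the 3 pairs. The pairs were chosen with the fold changes known, so these ratios describe unequal change within pairs.

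Tfeb and Tfe3 encode transcription factors that move to the nucleus in fasting and activate lysosomal and autophagy genes, a step that their own transcript levels do not report. Neither was called. Tfe3 was at 26.8, 23.7 and 26.8 CPM in the Vehicle libraries and at 32.6, 29.0 and 29.5 CPM in the FGF19 libraries. All FGF19 libraries lay above the Vehicle libraries, and the log2 fold change was 0.24 (standard error 0.097, 95% confidence interval 0.02 to 0.45), with an edgeR adjusted p of 0.18. Tfeb was at 11.4, 9.59 and 7.60 CPM against 8.28, 8.04 and 11.8 CPM, an overlap that left a log2 fold change of -0.02 with a 95% confidence interval of -0.46 to 0.41.

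None of the 5 lysosome genes was called, and all 5 log2 fold changes were below 0, between -0.18 and -0.03. Lamp1, the abundant lysosomal membrane glycoprotein with the highest mean RPKM of the 42 genes over all 6 libraries, was at 327, 328 and 305 RPKM in the Vehicle libraries and at 272, 273 and 304 RPKM in the FGF19 libraries. The groups were separate by a narrow margin, Sqstm1 was above Lamp1 in FGF19 replicates 1 and 2, and the log2 fold change was -0.18 (standard error 0.089, 95% confidence interval -0.38 to 0.02, edgeR adjusted p = 0.278). Lamp2, its relative and the receptor of chaperone-mediated autophagy, and Ctsd, the aspartic protease cathepsin D, also had non-overlapping lower groups, with log2 fold changes of -0.11 and -0.17. The cysteine protease cathepsin B, from Ctsb, had -0.03 with a 95% confidence interval of -0.21 to 0.15, and 16.3% of its exon bases are shared with Fdft1. Mcoln1, the calcium channel of the lysosome, had -0.15, and it was called lower only without FGF19 replicate 3 (edgeR adjusted p = 0.0492).

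**Figure D4:**
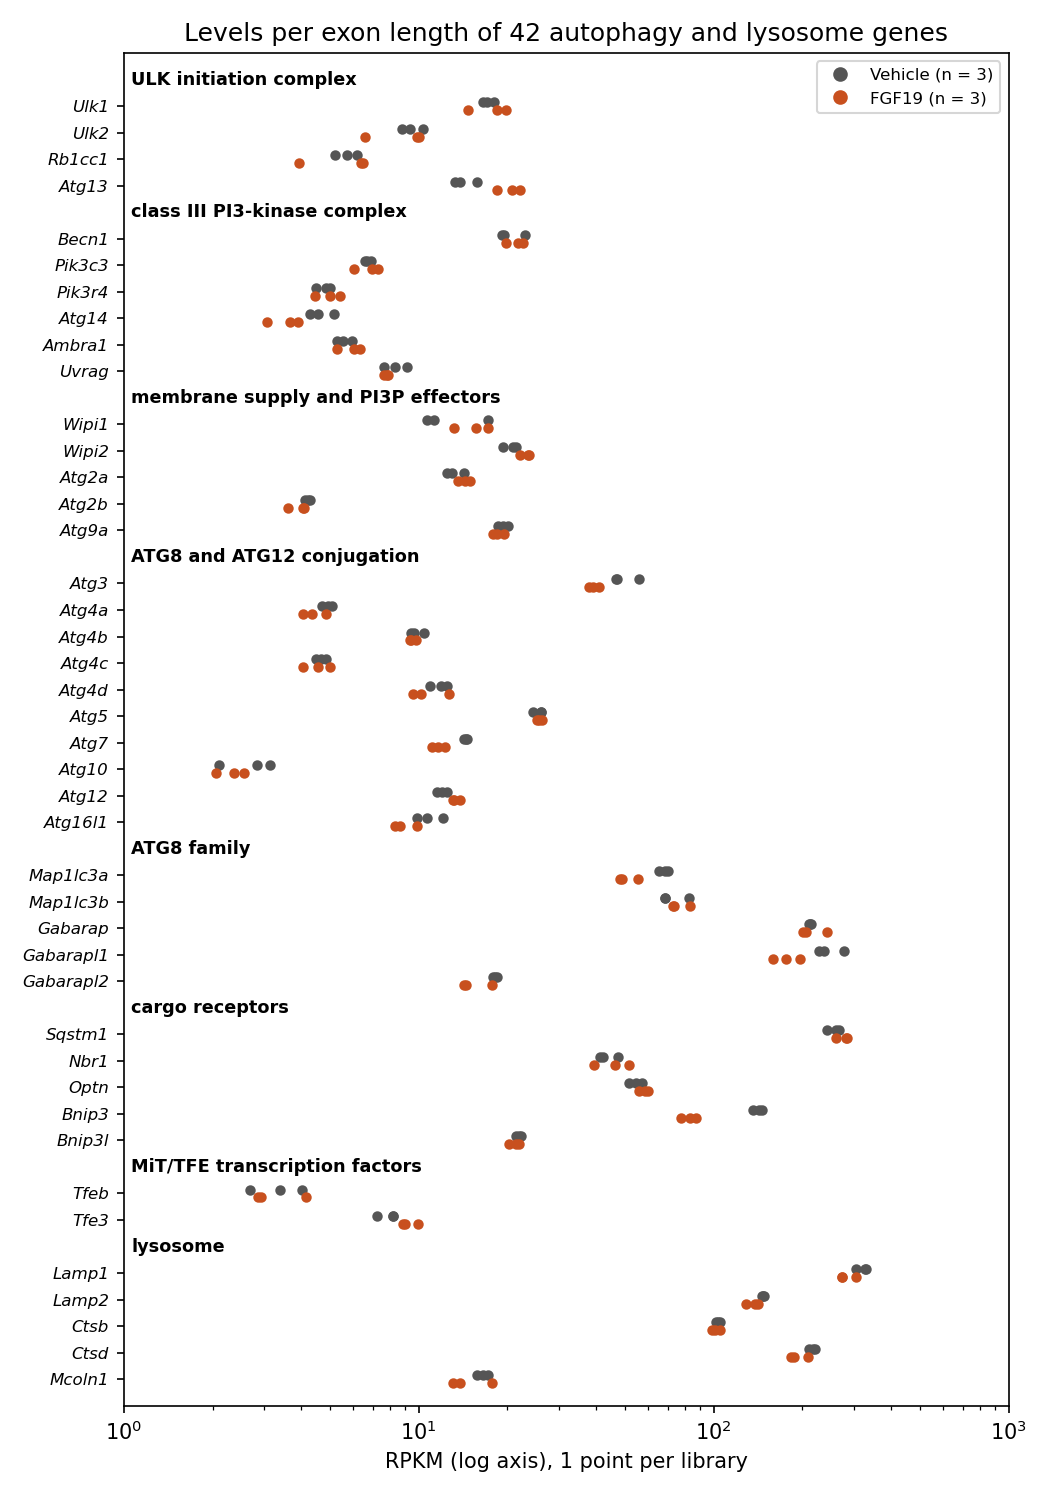
Level of each of the 42 genes per exon length (RPKM, horizontal log axis), with 1 point for each Vehicle and FGF19 library. Mean levels run from 2.51 RPKM for Atg10 to 301 RPKM for Lamp1, and the 5 highest are Lamp1, Sqstm1, Gabarap, Gabarapl1 and Ctsd.

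Levels per exon length differed far more between genes than between groups. Over all 6 libraries the mean RPKM ran from 2.51 for Atg10 to 301 for Lamp1, and the next highest were Sqstm1 (266), Gabarap (214), Gabarapl1 (212) and Ctsd (205). The ULK complex genes were at means of 5.64 to 17.4 RPKM, the PI3-kinase complex genes at 4.10 to 20.9 RPKM, the membrane supply and PI3P genes at 4.05 to 21.8 RPKM, the conjugation genes at 2.51 to 44.5 RPKM and Tfeb and Tfe3 at 3.34 and 8.57 RPKM. The ATG8 genes were at 16.8 to 214 RPKM, the cargo receptors at 21.5 to 266 RPKM and the lysosome genes at 15.7 to 301 RPKM. Within groups, the coefficient of variation of a member had a median of 5.20% in the Vehicle group, from 0.731% for Gabarap to 27.5% for Wipi1, and of 7.89% in the FGF19 group, from 1.58% for Uvrag to 25.7% for Rb1cc1. FGF19 replicate 3 was the highest of its group for 20 members and the lowest for 13, FGF19 replicate 2 was the lowest for 20, and the median log2 ratio of the members to the Vehicle mean lay between -0.061 and -0.045 in the FGF19 libraries.

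Other genes of the pathway were taken from 6 lists of 148 genes, of which 147 had enough counts to be tested. The gene left out, Atp6v0c of the V-ATPase list, was listed at 0 in all libraries. Reads at several places or in several genes were not counted, and their part in this 0 was not tested. By the same edgeR test 3 of the 147 fell (2.04%) and 8 rose (5.44%), with a median log2 fold change of -0.04, where 2.84% and 4.56% of all genes tested were called. None of 14 tested V-ATPase genes, the proton pump that acidifies the lysosome, was called, with log2 fold changes between -0.17 and 0.21, and none of 30 other genes of the autophagy machinery was. At an unadjusted p under 0.01 there were 0 among the V-ATPase genes. Of the other machinery genes 1 was lower (3.33%, against 4.98% of all genes tested) and 1 higher (3.33%, against 6.20%). The lower gene was Park2, the ubiquitin ligase Parkin, at 2.86, 2.39 and 3.28 CPM against 1.16, 1.10 and 1.99 CPM (log2 fold change -0.998, edgeR adjusted p = 0.0588). The higher gene was Vmp1 (0.30, edgeR adjusted p = 0.0846). These 2 were named after their values were seen.

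Of 40 lysosomal hydrolases, Ctsf and Glb1 fell (5.0%, against 2.84% of all genes tested) and Ctsc and Lgmn rose (5.0%, against 4.56%). Ctsf, cathepsin F, was at 44.2, 58.4 and 54.7 CPM in the Vehicle libraries and at 35.7, 33.9 and 41.9 CPM in the FGF19 libraries (log2 fold change -0.50, adjusted p = 0.045), and Glb1, the lysosomal beta-galactosidase, had -0.48 (adjusted p = 0.0361, both from edgeR). Ctsc, the protease that activates granule serine proteases, was at 75.0, 79.2 and 71.2 CPM against 103, 114 and 92.8 CPM (0.46, adjusted p = 0.0235), and Lgmn, legumain, rose by 0.37 (adjusted p = 0.0472, both from edgeR). With 1 library left out, Ctsf and Ctsc were each called in 2 of 6 fits, and Glb1 and Lgmn each in 1 of 6. The median log2 fold change of the hydrolases was -0.08. Of 16 genes of the lysosomal membrane and transport, the calcium channel gene Tpcn2 was called higher (0.78, edgeR adjusted p = 0.028), at 2.28 to 2.68 CPM in the Vehicle libraries and 3.77 to 4.66 CPM in the FGF19 libraries. This is 6.25% of that list, against 4.56% of all genes tested called higher.

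Of 31 genes that control autophagy through mTORC1 and AMPK, Sesn2, a leucine sensor and stress-response gene, rose by 0.58 on the log2 scale (adjusted p = 0.0307), and Rraga, a GTPase that brings mTORC1 to the lysosome, by 0.38 (adjusted p = 0.0438, both from edgeR). These 2 are 6.45% of that list, against 4.56% of all genes tested called higher, and none of the list was called lower. Of 16 transcriptional regulators of autophagy 1 fell (6.25%, against 2.84% of all genes tested) and 3 rose (18.8%, against 4.56%), with a median of 0.17. Nr1h4, the bile acid receptor FXR, was at 163, 140.3 and 149 CPM in the Vehicle libraries and at 84.9, 93.1 and 117 CPM in the FGF19 libraries (log2 fold change -0.61, standard error 0.125, edgeR adjusted p = 0.0185). Nr0b2, the repressor SHP that FXR induces, was at 13.9, 21.8 and 30.9 CPM against 64.5, 54.5 and 54.8 CPM, a rise by 1.38 (standard error 0.232, edgeR adjusted p = 0.00823). Kdm6b, the histone demethylase JMJD3, rose by 0.46 (adjusted p = 0.035), and Xbp1, a transcription factor of the unfolded protein response, by 0.45 (adjusted p = 0.0155, both from edgeR). These counts moved with single libraries. Without FGF19 replicate 3, 9 of the other pathway genes were called lower and 15 higher. Without Vehicle replicate 2 there were 1 and 4, and without Vehicle replicate 1 there were 1 and 1. Without Vehicle replicate 3, FGF19 replicate 1 or FGF19 replicate 2 there were 0 and 1. The share of all genes called in these fits was not computed. Of the called pathway genes, only Nr0b2 kept its call in all 6 of these fits.

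**Figure D5:**
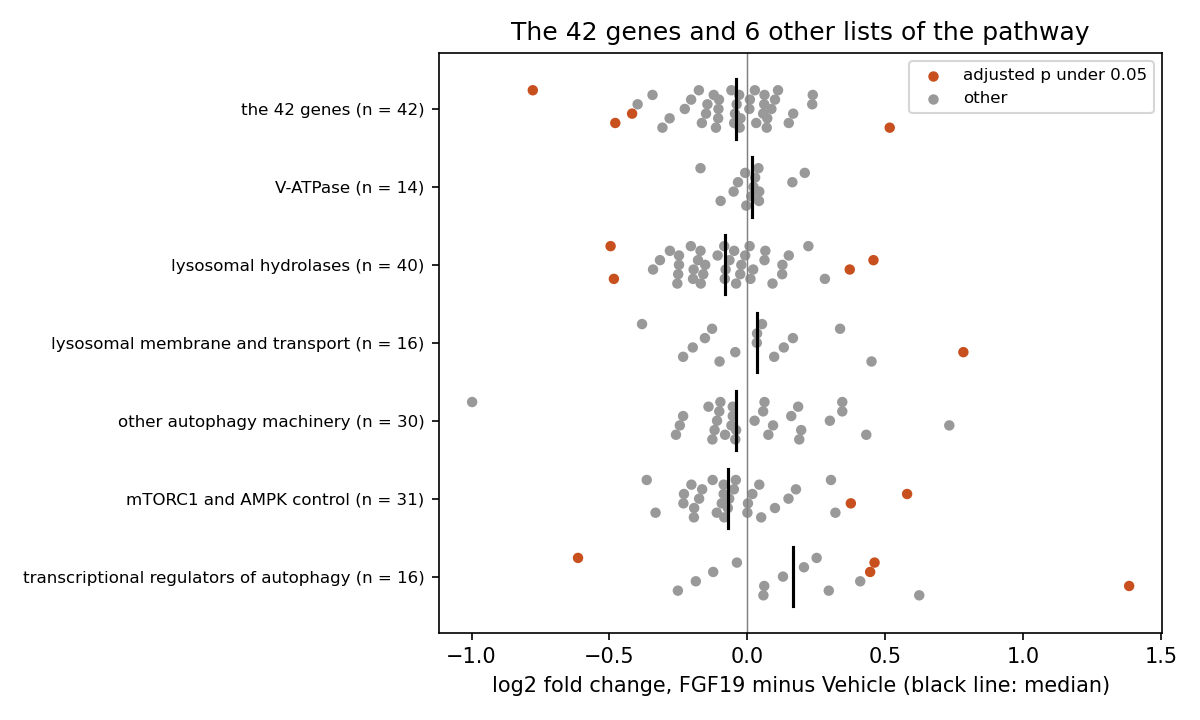
Log2 fold change (FGF19 minus Vehicle, horizontal axis) of the 42 genes and of the tested genes of 6 other lists, with 1 point per gene, a black line at each median and colour for an adjusted p under 0.05. The medians lie between -0.08 for the lysosomal hydrolases and 0.17 for the transcriptional regulators.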

How the data were processed

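Liver RNA of 6 mice (3 Vehicle, 3 FGF19) was sequenced as paired-end reads. The authors trimmed the reads, aligned them to mm9 with STAR (2.5.3a in the submitters' processing notes) and counted them on exons with featureCounts 1.5.2. The deposited values are raw counts per gene without normalization. Per the file headers, strand was not used, mates were counted as separate reads, and reads at several places or in several genes were left out, so genes with overlapping exons lose reads. The deposited table of the authors' own comparison (fold changes, p-values) was not used.

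The count analysis ran on R 4.3.3, edgeR 4.0.16 and limma 3.58.1. The 12559 genes kept by filterByExpr were scaled by TMM and compared with the quasi-likelihood test without covariates, with Benjamini-Hochberg adjustment. Standard errors and 95% confidence intervals come from that test, and RPKM was computed from scaled counts and the exon lengths in the files. The fit was tested on simulated data. No 2 libraries agreed within sampling noise (chi-square per degree of freedom at least 8.25). The samples are separate mice, and p-values measure the spread between 3 of them in each group. Counting limits cover counting error only, since reads carry no molecular identifiers.

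The members and lists were chosen with earlier results of these data known. Members were named in full if they passed an adjusted p of 0.05 or a p of 0.01, or had the highest RPKM or largest fold change of their role, and other pathway genes if they passed an adjusted p of 0.05 at a mean of at least 1 CPM (up to 3 falls and 3 rises per list). Of the 148 other genes 7 were matched through older symbols. As alternatives, the comparison was repeated in DESeq2 1.42.0, in limma-voom, by the likelihood ratio test, unfiltered, with a mean of at least 1 CPM, without TMM scaling, with the replicate number taken as a block, and after omitting single libraries.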

Additional observations from a re-analysis of the deposited data

How the results depend on the processing

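Deviations from the group mean correlated at -0.112, -0.353 and -0.272 between libraries with the same replicate number. Between libraries with different numbers they correlated at -0.151 to 0.341. With 3 libraries in each group, these values cannot show whether mice were paired or handled together. With the replicate block, 1 member was called lower at an adjusted p under 0.05 in place of 3 (Map1lc3a had 0.0674 and Gabarapl1 0.0706) and 3 at p under 0.01 in place of 5, and of the other pathway genes 1 was called lower in place of 3 and 2 higher in place of 8. DESeq2 and the likelihood ratio test each called 5 members and 6 other pathway genes lower. With each library left out in turn, members called at the adjusted threshold numbered 1 to 7 lower and 0 to 1 higher, those at p under 0.01 numbered 2 to 8 lower (2 without FGF19 replicate 2, 8 without FGF19 replicate 3) and 1 to 2 higher (2 without Vehicle replicate 2), and other pathway genes 0 to 9 lower and 1 to 15 higher. The share of all genes called was not computed for any of these fits, so these counts are not set against all genes. The cause of these moves was not tested. The median of the members stayed between -0.06 and -0.03.

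No alternative with all 6 libraries turned the direction of a member, and in the fits without 1 library 31 of 42 kept it. The other 11, none of them called, ranged from -0.058 to 0.151 for Ulk1, -0.2 to 0.074 for Ulk2, -0.146 to 0.175 for Rb1cc1, -0.05 to 0.087 for Pik3c3, -0.002 to 0.131 for Pik3r4, -0.074 to 0.001 for Atg4b, -0.113 to 0.041 for Atg4c, -0.018 to 0.032 for Atg5, -0.056 to 0.085 for Gabarap, -0.026 to 0.173 for Nbr1 and -0.219 to 0.126 for Tfeb.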
